A study of Mus musculus with 8 samples.

Results

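Libraries made from sorted jejunal cells labelled as tuft cells held transcripts of intestinal stem cell (ISC) and Wnt target genes, and the values below describe 10 of them, Lgr5, Olfm4, Ascl2, Smoc2, Axin2, Rnf43, Znrf3, Lgr4, Lrig1 and Bmi1. The 10 genes were taken by symbol from the 35199 genes of the deposited count table, all 10 were found, and 21805 genes of the table had a count. Dclk1-DTR-ZSgreen mice carry a bacterial artificial chromosome (BAC) in which a diphtheria toxin receptor and ZSgreen reporter cassette sits in exon 2 of Dclk1, a gene expressed in tuft cells, so that ZSgreen follows the activity of that transgene and not the cell type itself. All mice of both groups carry this transgene; the BAC was injected into CBA × C57BL/6J oocytes and the line was backcrossed to C57BL/6J. Mice 8 to 10 weeks of age at pump implantation received scopolamine, a nonselective muscarinic receptor antagonist, at 0.5 mg per kg per day (4 mice), or sodium chloride as sham treatment (4 mice), through an osmotic pump for 7 days. Live, EPC-high, ZSgreen-positive cells were sorted from the jejunum, and their amplified RNA was sequenced, 1 library per mouse. The comparison asks whether muscarinic blockade changed the level of these genes within the sorted cells.

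Intestinal stem cells sit at the crypt base and renew the epithelium, and canonical Wnt signaling keeps them in that state. A Wnt ligand bound to Frizzled and Lrp5 or Lrp6 stops the degradation of β-catenin, which enters the nucleus and, with TCF/LEF factors, activates target genes. Among the 10 genes, Lgr5 and Lgr4 encode receptors for R-spondins, which raise Wnt signaling by removing the ubiquitin ligases Rnf43 and Znrf3 from the cell surface. Rnf43 and Znrf3 themselves remove Frizzled receptors, and Axin2 is a scaffold of the β-catenin destruction complex; these genes act as negative feedback, and Axin2 is a widely used readout of the pathway. Ascl2 is a transcription factor of the stem cell state, Olfm4 is a secreted glycoprotein and Smoc2 a matricellular protein, both abundant in crypt base cells. Lrig1 restrains ErbB receptors in stem and progenitor cells, and Bmi1, a Polycomb protein, has been used to mark cells above the crypt base. Some of these genes are not restricted to stem cells.

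The total estimated count was between 14343362 and 20857433 per library with scopolamine and between 25769940 and 41428916 in sham, so the shallowest sham library exceeded the deepest treated one, and treatment cannot be told apart from depth. Levels are given in CPM, counts scaled to a common library size with TMM factors (trimmed mean of M-values), and 3 counts, used as the detection floor, correspond to 0.0724 to 0.209 CPM; this floor covers counting error only. Sham 1 and sham 3 were made from 200 pg of RNA with 15 amplification cycles, and the other 6 libraries from 1000 pg with 10 cycles. The mouse IDs start with M for scopolamine 1 to 3 and sham 1, and with N for scopolamine 4 and sham 2 to 4, and the sources used here do not say what the letter stands for.

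The sorted cells carried the markers of their label. Dclk1 was measured at 3434 to 5725 CPM, but the cells were sorted by a Dclk1 transgene, so its level is no separate check of the label. Trpm5 was at 966 to 1736 CPM and Pou2f3 at 196 to 609 CPM. The summed level of 8 tuft cell markers, Dclk1 included, was 8104 to 13558 CPM with scopolamine and 9686 to 12161 CPM in sham. Transcripts of other epithelial cells were present as well. The summed level of 8 enterocyte markers was 3411 to 6653 CPM with scopolamine and 3222 to 7003 CPM in sham, that of 6 goblet cell markers was 646.96 to 3439.5 and 301.3 to 1266 CPM, and that of 6 Paneth cell markers, a cell type that neighbors the stem cells at the crypt base, was 54.1 to 1279 and 39.5 to 135 CPM. The highest Paneth sum was that of scopolamine 4. For 7 enteroendocrine markers the sums were 183 to 808 CPM with scopolamine and 26.4, 16.1, 826 and 2.54 CPM in sham 1 to 4. Sham 3 lay above and the other sham mice below every treated mouse, and Cck and Tac1 had no count in sham 4. For 6 lymphocyte markers the sums were 39.9 to 175 and 53.96 to 228 CPM, the highest in sham 1, and Cd3e and Cd7 were at 0 CPM in sham 4. Stromal markers were nearly absent, with a sum over 6 genes of at most 1.53 CPM in any library. No gene of these marker lists had an adjusted p under 0.1 between the groups; the median log2 fold change was 1.48 for enterocyte, 1.32 for goblet, 2.13 for Paneth, 0.86 for enteroendocrine and 0.25 for lymphocyte markers. At an unadjusted p under 0.05 with edgeR, 1 of 8 enterocyte, 1 of 6 goblet cell and 1 of 6 Paneth cell markers passed. With 0 of 7 enteroendocrine and 0 of 6 lymphocyte markers, this stands against 5.99% of all genes tested. The genes were Apoa4, Zg16 and Itln1, with log2 fold changes of 1.92, 2.54 and 3.49. The groups overlapped for each of them, and Zg16 was highest in scopolamine 1 (1614 CPM) and Itln1 in scopolamine 4 (416 CPM). Of the 7 markers listed for crypt base stem cells, which include Lgr5, Olfm4, Ascl2, Smoc2 and Axin2, the sum was 165 to 288 CPM with scopolamine and 209.5 to 312 CPM in sham, and that of 5 cycling markers was 59.8 to 172 and 53.9 to 94.0 CPM. In a bulk sample, fewer cells of a type and less RNA per cell cannot be told apart, and the part of other cells in the levels of the 10 genes was not tested.

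The 10 genes covered a wide range of levels. Divided by the length of the longest annotated coding transcript, Ascl2 was highest at 32.3 ± 9.63 CPM per kb (SD, n = 8 libraries of both groups), above 89.8% of the genes with a count. Olfm4 followed at 12.98 ± 7.65, Smoc2 at 12.9 ± 4.74 and Lgr5 at 9.98 ± 2.69 CPM per kb. Lgr4 was measured at 6.12 ± 2.26, Lrig1 at 3.62 ± 1.29, Bmi1 at 3.53 ± 1.46, Rnf43 at 3.12 ± 1.66 and Znrf3 at 2.55 ± 0.54 CPM per kb. Axin2 stood far below the rest at 0.0925 ± 0.0748 CPM per kb, above 28.4% of the genes with a count. In comparison, the tuft cell genes Dclk1, Trpm5 and Pou2f3 were at 579.6 ± 106, 331 ± 62.5 and 144 ± 46.8 CPM per kb.

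Neighbors in this order were not all distinct. Ascl2 exceeded Olfm4 in 8 of 8 libraries, Lgr5 exceeded Lgr4 in 7, Lgr4 exceeded Lrig1 in 7 and Znrf3 exceeded Axin2 in 8. Olfm4 exceeded Smoc2 in 3 of 8 libraries and Smoc2 exceeded Lgr5 in 6. Among Lrig1, Bmi1, Rnf43 and Znrf3 each gene exceeded the next in 4 to 5 of 8 libraries, so their order did not hold from mouse to mouse. The choice of length also matters: over all annotated exons Smoc2, Lgr4 and Lgr5 were at 5.24, 5.26 and 4.58 CPM per kb. Ascl2 remained highest and Axin2 lowest on both scales.

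**Figure D1:**
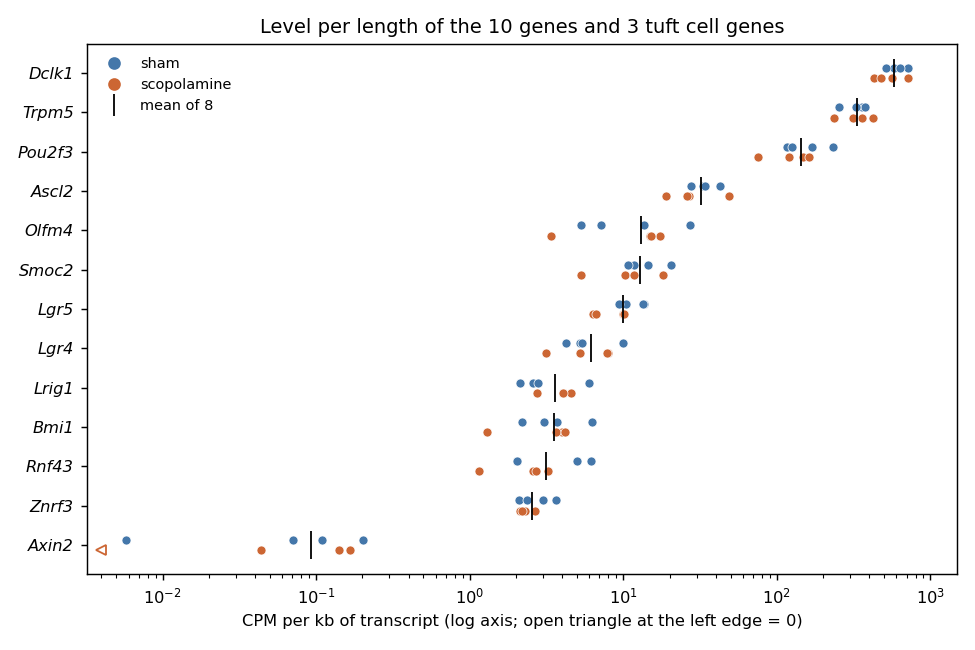
Level per length (CPM per kb of the longest annotated coding transcript, log axis) of the 10 genes and the tuft cell genes Dclk1, Trpm5 and Pou2f3; each point is 1 library, blue for sham and orange for scopolamine, the black tick is the mean of all 8, and an open triangle at the left edge stands for 0. Ascl2 at 32.3 CPM per kb lies between the tuft cell genes and the other 9 genes, and Axin2 lies below all others in every library.

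The genes lie on 7 chromosomes of GRCm38 (GENCODE release M21). Lgr5 spans chromosome 10 from 115450311 to 115587780 and overlaps the protein-coding gene A930009A15Rik on the opposite strand. Olfm4 lies on chromosome 14 from 79984081 to 80023139, with the lincRNA Gm6999 on the same strand. Ascl2 spans chromosome 7 from 142966829 to 142969264, and Smoc2 chromosome 17 from 14279506 to 14404790, with the antisense gene 4930474M22Rik. On chromosome 11 lie Axin2 from 108920349 to 108950783, with the antisense gene Gm11670, Rnf43 from 87662722 to 87735539, with Gm25968 and 1110028F11Rik inside it, and Znrf3 from 5276324 to 5444847. Chromosome 2 holds Lgr4 from 109917647 to 110014257 and Bmi1 from 18677018 to 18686629. Lrig1 spans chromosome 6 from 94604529 to 94700158 and overlaps Slc25a26 on the opposite strand and Mir7041. Whether reads were counted by strand is not given, and overlapping genes may share reads; Ascl2, Znrf3, Lgr4 and Bmi1 overlap no annotated gene.

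Because several of these genes are known targets of β-catenin, their promoters were searched for the words that TCF/LEF factors recognize. RefSeq windows on GRCm38.p6 from 250 bases before to 50 bases after a start site were present for 7 of the 10 genes, with 2 windows for Rnf43; Lgr5, Smoc2 and Znrf3 had none. The 4 words searched, on both strands, are CTTTG followed by AA, AT, TA or TT. None of the 8 windows held one, while 5544 of all 32851 windows, 16.9%, did. This describes only the letters of these short windows. The bases before the start site are shown for the genes with the highest and the lowest level per length, in lower case since no word was found to mark:
Ascl2, GRCm38.p6 chr7:142969265-142969514, minus strand: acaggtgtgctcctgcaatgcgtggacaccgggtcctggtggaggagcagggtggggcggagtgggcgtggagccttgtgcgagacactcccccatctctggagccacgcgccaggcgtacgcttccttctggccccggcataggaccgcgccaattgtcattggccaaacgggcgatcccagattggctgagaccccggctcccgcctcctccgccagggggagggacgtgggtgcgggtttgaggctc
Axin2, GRCm38.p6 chr11:108920099-108920348, plus strand: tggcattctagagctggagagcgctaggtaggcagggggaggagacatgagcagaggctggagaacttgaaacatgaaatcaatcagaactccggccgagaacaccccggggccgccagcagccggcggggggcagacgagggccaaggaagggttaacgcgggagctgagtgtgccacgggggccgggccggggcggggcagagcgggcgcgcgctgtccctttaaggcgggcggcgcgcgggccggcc
Both windows were rich in G and C, with 67% for the Ascl2 window and 70% for the Axin2 window, against a median of 52.7% over all windows.

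None of the 10 genes differed between scopolamine-treated and sham mice past the threshold. All 10 passed the expression filter of edgeR's quasi-likelihood test, 0 had a Benjamini-Hochberg adjusted p under 0.1, and their adjusted p lay between 0.812 and 0.996. Across all genes tested the share called was 0.0% (0 of 12849, smallest adjusted p 0.439), so these tests found no gene of any kind at this threshold. At an unadjusted p under 0.05 edgeR gave 770 genes (428 higher, 342 lower), which is 5.99%, and 0 of the 10 genes were among them. DESeq2, run as an alternative, called 190 of 14462 genes, 1.31%, and again 0 of the 10. For 9 of the 10 genes the estimate was below 0, that is lower with scopolamine, where 50.9% of all genes tested had an estimate below 0. The median log2 fold change of the 10 genes was -0.19, against -0.01 for all genes, whose quartiles were -0.29 and 0.34. The groups overlapped for all 10 genes, whereas they did not overlap for 3.88% of the genes tested.

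The test could miss changes of moderate size. The standard error of the log2 fold change had a median of 0.38 over the 10 genes and 0.42 over all genes, and the 95% intervals of all 10 genes included 0. A change of 2-fold in either direction lay outside the interval for Ascl2, Znrf3 and Lgr4. For Axin2 the interval ran from -2.65 to 2.40 on the log2 scale.

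**Figure D2:**
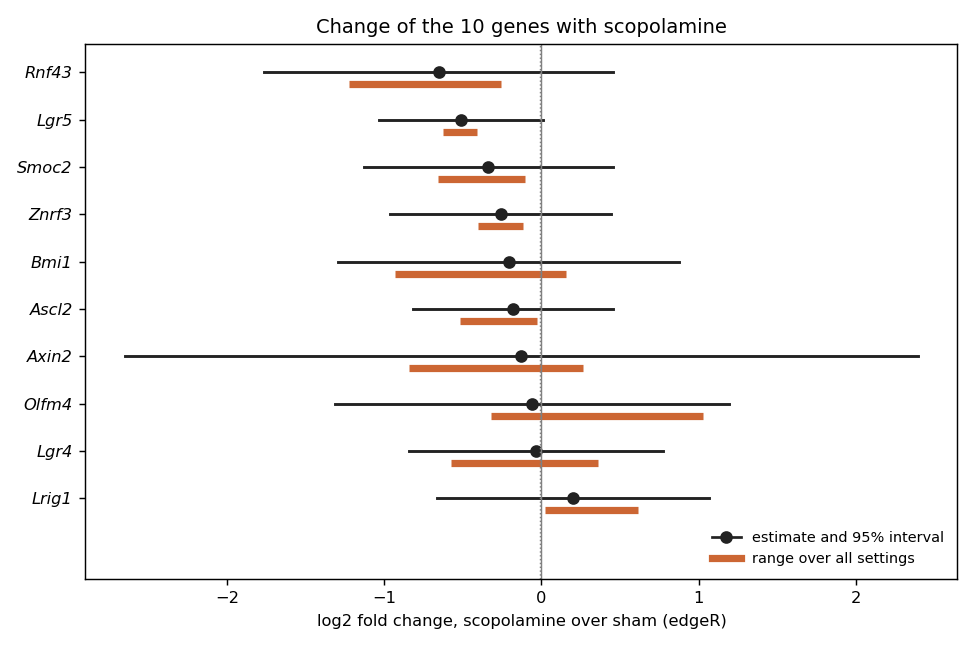
Log2 fold change with scopolamine over sham for the 10 genes (edgeR); black points and lines are the estimate and its 95% interval from 4 against 4 mice, the orange bar under each is the range over all settings tried, DESeq2 included, and the dotted line is the median of all genes, -0.01. Every black interval includes 0, and 9 of the 10 estimates lie to its left.

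Lgr5, the R-spondin receptor that defines crypt base stem cells, came closest to a difference. Its level was 46.6, 29.9, 31.2 and 47.6 CPM in scopolamine 1 to 4 and 64.2, 63.5, 48.9 and 44.4 CPM in sham 1 to 4. Scopolamine 2 and 3 lay below every sham mouse, while scopolamine 1 and 4 exceeded sham 4, so the groups overlapped by the lowest sham library. The mean was 55.2 ± 10.1 CPM (SD, n = 4) in sham and 38.8 ± 9.59 CPM (SD, n = 4) after treatment. The log2 fold change was -0.51 (standard error 0.24, 95% interval -1.03 to 0.01, edgeR unadjusted p = 0.0551, adjusted p = 0.812). With DESeq2 the unadjusted p was 0.0413 and the adjusted p 0.452, and an exact permutation test on log2(CPM + 1) returned a two-sided p of 0.114, where 0.0286 is the smallest that the 70 assignments allow. Its estimate stayed below 0 in all 18 fits, from -0.63 to -0.41, the narrowest range of the 10 genes.

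Ascl2, the transcription factor of the stem cell state, was measured at 78.6, 30.5, 43.3 and 41.8 CPM with scopolamine. In sham it was measured at 44.3, 53.4, 54.8 and 68.0 CPM. Scopolamine 2 to 4 lay below every sham mouse, but scopolamine 1 was the highest of all 8 libraries. A log2 fold change of -0.18 was estimated (standard error 0.29, edgeR adjusted p = 0.946). Single libraries moved this estimate both ways: it was -0.52 without scopolamine 1 (edgeR unadjusted p = 0.0558, adjusted p = 0.676) and -0.29 without sham 1, but -0.07 without sham 4 and -0.03 without scopolamine 2.

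Smoc2, the matricellular protein, had 51.1, 29.2, 15.0 and 33.3 CPM with scopolamine. The sham values were 33.4, 57.8, 41.0 and 30.5 CPM. Scopolamine 3 was the lowest library, scopolamine 2 was also under the lowest sham value, and scopolamine 1 was second only to sham 2. Its estimated log2 fold change was -0.34 (standard error 0.36, edgeR adjusted p = 0.904), and it was -0.66 without scopolamine 1, -0.12 without sham 2 and -0.10 without scopolamine 3.

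Olfm4, the secreted stem cell glycoprotein, varied most between mice of the 9 genes with a count in every library, with an 8-fold span. Its level was 41.9, 48.6, 9.45 and 42.5 CPM with scopolamine and 75.6, 19.96, 38.02 and 14.9 CPM in sham. Scopolamine 1, 2 and 4 lay close together and scopolamine 3 lay far under them, while the sham mice were spread over the whole range. The means were almost equal, 37.1 ± 27.5 CPM (SD, n = 4) in sham against 35.6 ± 17.7 CPM (SD, n = 4) after treatment, and the log2 fold change was -0.06 (standard error 0.57, edgeR adjusted p = 0.996). Its direction was not stable: without scopolamine 3 the log2 fold change was 0.26 and without sham 1 it was 0.55.

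**Figure D3:**
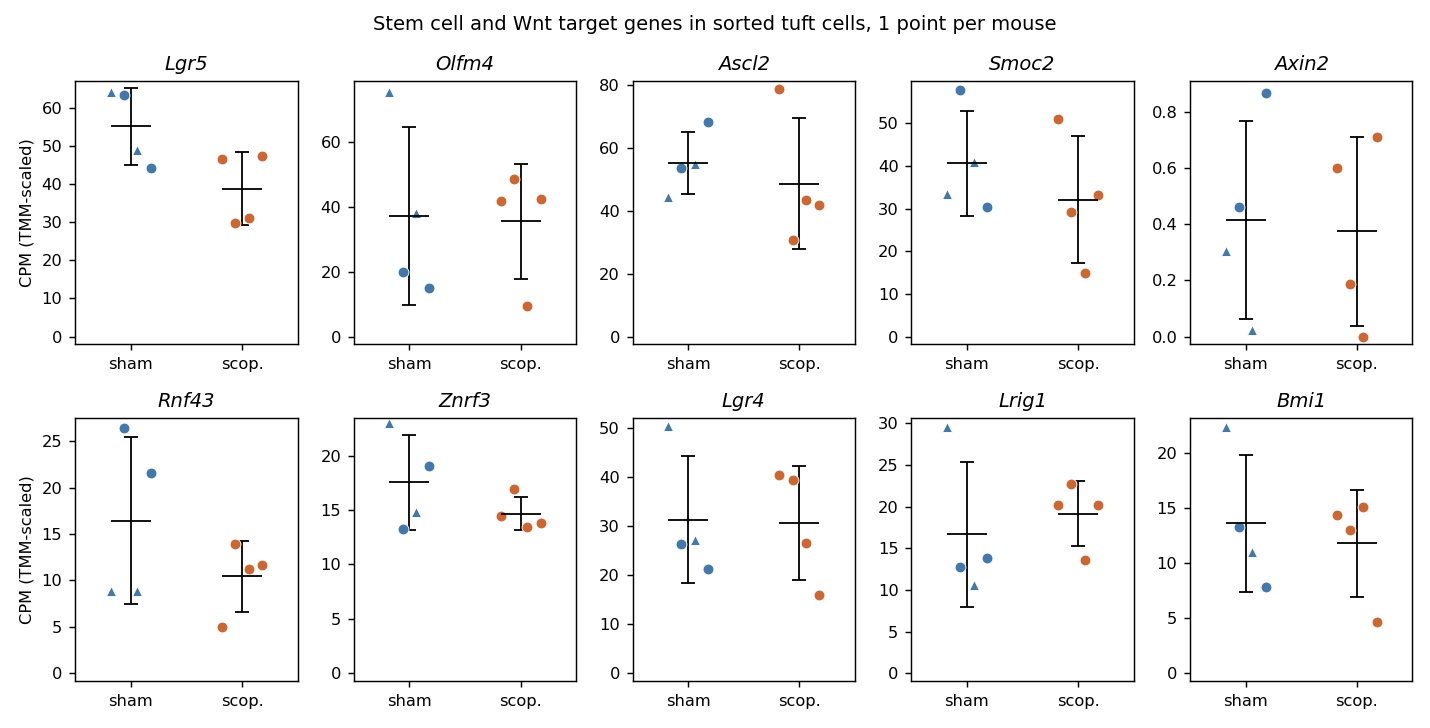
Level of each of the 10 genes in CPM (TMM-scaled, axes from 0, a separate scale for each gene) in 4 sham (blue) and 4 scopolamine-treated mice (orange), 1 point per mouse in replicate order; triangles are the sham libraries made from 200 pg of RNA, and black lines are the mean and SD. The groups overlap for all 10 genes, Lgr5 comes closest to separation, and Axin2 stays under 1 CPM.

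The negative feedback genes of the Wnt pathway stood at quite different levels. Axin2, the scaffold of the destruction complex, had counts of 12, 4, 0 and 15 in scopolamine 1 to 4 and 8, 19, 1 and 29 in sham 1 to 4, equal to 0.601, 0.187, 0 and 0.709 CPM and 0.303, 0.462, 0.0248 and 0.865 CPM. Scopolamine 3 and sham 3 did not exceed the 3 counts of the floor, and both groups held mice with and without a detectable level. For Axin2 the log2 fold change was -0.13 (standard error 1.14, edgeR adjusted p = 0.996), a difference that was not detectable at this precision, and with 1 library left out it ran from -0.65 without scopolamine 4 to 0.27 without scopolamine 3. It was -0.84 with both lower-input sham libraries left out and -0.80 with the number of amplification cycles as a covariate.

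Rnf43, a ubiquitin ligase that removes Frizzled from the cell surface, was measured at 4.96, 13.9, 11.2 and 11.7 CPM with scopolamine. In sham it was measured at 8.82, 26.5, 8.82 and 21.6 CPM. The sham mice formed a low pair, sham 1 and 3, and a high pair, sham 2 and 4, and the treated mice overlapped the low pair only. It had the lowest estimate of the 10 genes, a log2 fold change of -0.65 (standard error 0.50, edgeR unadjusted p = 0.221, adjusted p = 0.87). It was -0.42 without scopolamine 1, -0.33 without sham 2 and -0.26 with the letter of the mouse ID as a covariate, and -0.88 without sham 1.

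Znrf3, its paralog with the same role, varied least of the 10 genes. The values were 14.5, 16.9, 13.5 and 13.8 CPM with scopolamine and 22.98, 13.3, 14.8 and 19.1 CPM in sham. The treated mice stayed within a narrow band, at 14.7 ± 1.55 CPM (SD, n = 4), and sham 2 was the lowest of all 8 libraries. The estimated change was -0.26 on the log2 scale (standard error 0.32, edgeR adjusted p = 0.919), -0.12 without sham 1 and -0.40 with the letter of the mouse ID as a covariate.

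Lgr4, the R-spondin receptor that is expressed more widely than Lgr5, had an estimate near 0. Its level was 40.5, 39.5, 26.5 and 15.98 CPM with scopolamine and 50.4, 26.3, 27.2 and 21.3 CPM in sham. The highest and the lowest library came from different groups, sham 1 and scopolamine 4. The log2 fold change was -0.03 (standard error 0.37, edgeR adjusted p = 0.996), and its direction changed with single libraries, from -0.20 without scopolamine 1 to 0.29 without sham 1; whether Lgr4 and Lgr5 differed in their response was not tested.

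Lrig1, the ErbB inhibitor, was the 1 gene with a higher estimate. It was measured at 20.2, 22.8, 13.5 and 20.1 CPM with scopolamine and 29.6, 12.7, 10.6 and 13.9 CPM in sham. Scopolamine 1, 2 and 4 exceeded all sham mice but sham 1, which was the highest of all. The log2 fold change was 0.20 (standard error 0.39, edgeR adjusted p = 0.965), and without sham 1 it was 0.61, with an unadjusted p of 0.107 and an adjusted p of 0.627. It was 0.33 without scopolamine 3, 0.12 without sham 4, 0.10 without scopolamine 2, 0.09 without sham 2, 0.03 without sham 3 and 0.03 with the letter of the mouse ID as a covariate.

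Bmi1, the Polycomb protein, had 14.4, 13.0, 15.1 and 4.63 CPM with scopolamine. In sham the values were 22.3, 13.2, 11.02 and 7.85 CPM. Scopolamine 4 was the lowest library and sham 1 the highest, and the remaining mice of both groups intermingled. The log2 fold change was -0.21 (standard error 0.49, edgeR adjusted p = 0.976), -0.40 without sham 4, 0.05 without scopolamine 4 and 0.13 without sham 1.

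A single sham mouse was high for many of these genes. Sham 1 had the highest level of all 8 libraries for 6 of the 10 genes, Lgr5, Olfm4, Znrf3, Lgr4, Lrig1 and Bmi1. How often sham 1 was the highest over all genes tested was not counted, so this is not read as particular to these genes. This library was made from 200 pg of RNA, had 3000 sorted cells where 6 libraries had 4000, and held the highest lymphocyte marker sum (228 CPM) and the highest enterocyte marker sum (7003 CPM). Without it, 6 of the 10 estimates were below 0 and the median log2 fold change of the 10 genes was -0.20. The part of input, cell number or other cells in these levels was not tested.

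The 2 sham libraries made from 200 pg of RNA did not overlap the 2 made from 1000 pg for 4 of the 10 genes, Rnf43, Olfm4, Axin2 and Lgr4, against 35.2% of all genes tested, so the 10 genes were close to the background. Rnf43 was at 8.82 CPM in both libraries made from 200 pg and at 21.6 and 26.5 CPM in those made from 1000 pg, whereas Olfm4 was at 38.02 and 75.6 CPM with the lower input and at 14.9 and 19.96 CPM with the higher. The lower-input sham libraries were low for Rnf43 and Axin2 and high for Olfm4 and Lgr4. With both of them left out, the log2 fold change was -1.23 for Rnf43 (edgeR unadjusted p = 0.0225, adjusted p = 0.543) and 1.01 for Olfm4 (adjusted p = 0.667), and 6 of the 10 estimates were below 0. No gene of the 10 passed the threshold in that fit, in which 9 of 13869 genes did.

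Levels were also compared by the letter of the mouse ID. Bmi1 was at 13.0 to 22.3 CPM in the 4 libraries with the letter M and at 4.63 to 13.2 CPM in the 4 with N, and Lgr4 at 26.5 to 50.4 CPM and 15.98 to 27.2 CPM. The ranges overlapped only at their ends. Within a letter, where 1 group has a single mouse and no test was run, the difference of mean log2(CPM + 1) between scopolamine and sham was -0.52 (M) and -0.60 (N) for Lgr4 and -0.62 and -1.03 for Bmi1. For Lgr5 these differences were -0.85 and -0.12. Olfm4 had opposite signs, -1.45 and 0.89, as had Lrig1, -0.65 and 0.67, and 5 of the 10 genes in all. With the letter as a covariate, 8 of the 10 estimates were below 0, Lgr4 was at -0.57 and Bmi1 at -0.93, both with an edgeR adjusted p of 0.862.

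**Figure D4:**
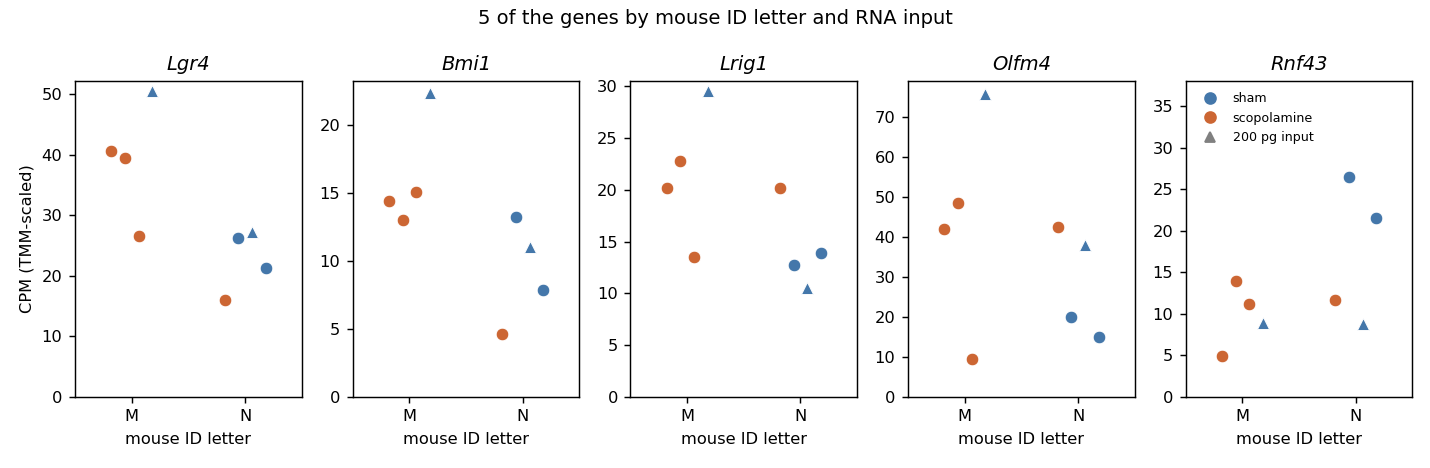
Level in CPM (TMM-scaled, axes from 0) of 5 of the genes by the letter of the mouse ID (M or N), 1 point per mouse; blue is sham, orange is scopolamine, and triangles are libraries made from 200 pg of RNA. Lgr4 and Bmi1 are higher with M than with N, with ranges that overlap only at their ends, and Rnf43 is low in both 200 pg libraries.

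Other stem cell and Wnt pathway genes were read from lists for comparison, and no gene of any of these lists had an adjusted p under 0.1 with edgeR. Of 23 other crypt base stem markers, 20 passed the filter, with 12 estimates lower, 8 higher and a median log2 fold change of -0.13, close to that of the 10 genes. The most abundant were Sox9, a progenitor transcription factor that tuft cells also express, at 460.4 to 784 CPM with scopolamine and 695 to 795 CPM in sham, and Hopx, a marker of reserve stem cells. Per length, Hopx stood at 521 CPM per kb, between the tuft cell genes Dclk1 (579.6) and Trpm5 (331), and Sox9 at 159. Which of the sorted cells held these transcripts was not tested. Hopx had 634, 445, 564 and 435 CPM with scopolamine and 579, 752, 864 and 982 CPM in sham, where scopolamine 1 exceeded sham 1. Its log2 fold change was -0.61 (edgeR unadjusted p = 0.00898, adjusted p = 0.812). Ephb3 and Cd44, both β-catenin targets, had log2 fold changes of -1.11 and -0.90 (edgeR adjusted p = 0.814 and 0.812).

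Ligands of the pathway were scarce in these libraries. Of 25 genes for Wnt ligands, R-spondins and ligand secretion, 7 passed the filter and 11 had no count in any library; those that did not pass, all 4 R-spondins included, reached at most 0.537 CPM. The most abundant were the secretion factor Wls, at 2.46 to 10.8 CPM, and Wnt6, at 0.0729 to 15.7 CPM. The smallest unadjusted p values belonged to Wnt4, Wls and Porcn, an enzyme that acylates Wnt ligands, with log2 fold changes of 1.92, 0.68 and 0.59 (edgeR adjusted p = 0.812, 0.88 and 0.949).

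Receptors were present. Of 16 Wnt receptor genes 10 passed the filter, with 7 estimates higher and a median log2 fold change of 0.34. Ryk and Fzd5 were the most abundant, at 44.9 to 68.0 and 23.1 to 38.4 CPM. Lrp5, the co-receptor, was at 19.1, 11.8, 15.8 and 11.6 CPM with scopolamine and 3.18, 6.95, 3.57 and 11.8 CPM in sham. Its log2 fold change was 1.19 (edgeR unadjusted p = 0.043, adjusted p = 0.812), and sham 4 overlapped the treated mice. For Fzd7 the log2 fold change was 1.39 (adjusted p = 0.827).

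Downstream of the receptors, all 15 genes of the cytoplasmic relay passed the filter, 7 with higher and 8 with lower estimates and a median log2 fold change of -0.03. Ctnnb1, which encodes β-catenin, was at 293 to 406 CPM with scopolamine and 265 to 347 CPM in sham, and its log2 fold change was 0.18 (edgeR adjusted p = 0.874). The kinase gene Csnk1a1, at 206 to 310.3 CPM, had -0.08, and Tnks2, Amer1 and Gsk3a had -0.60, -0.66 and 0.29 (edgeR adjusted p from 0.813 to 0.967 for these 4 genes). In the nuclear relay 9 of 13 genes passed the filter with a median of -0.12, and the others reached at most 16.8 CPM. Tcf7l2, the main TCF factor of the gut, was at 114 to 143 CPM and had a log2 fold change of -0.12 (edgeR adjusted p = 0.912). The corepressor gene Tle1 had 0.73 (edgeR unadjusted p = 0.0211, adjusted p = 0.812), with 29.6 to 51.0 CPM with scopolamine and 17.3 to 29.7 CPM in sham, so scopolamine 1 and sham 4 overlapped. Tle3 had 0.29 and Pygo2 -0.33 (adjusted p = 0.851 and 0.874).

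Few inhibitors passed the filter, 3 of 16 genes, and 4 had no count in any library. Those that did not pass reached at most 9.86 CPM. Nkd1, a feedback inhibitor that acts on Dishevelled and is itself a target of β-catenin, was at 30.8, 24.4, 18.3 and 13.9 CPM with scopolamine and 39.2, 34.9, 29.5 and 37.7 CPM in sham. Scopolamine 1 lay just above sham 3, and the log2 fold change was -0.69 (edgeR unadjusted p = 0.0345, adjusted p = 0.812). Kremen2 and Kremen1, receptors for Dkk proteins, had 1.66 and 0.23 (adjusted p = 0.817 and 0.982). Of 15 other Wnt target genes, 9 passed the filter and the others reached at most 16.8 CPM. Of the 9, 5 had lower and 4 higher estimates, and the median was -0.32. Among these 9, Sox9, Cd44, Ephb2 and Ephb3 are also in the list of stem markers, Nkd1 is in that of inhibitors and Mmp7 in that of Paneth cell markers. Of the 6 that did not pass, Tnfrsf19 is also a listed stem marker, Notum and Dkk1 are listed inhibitors, and Lef1 and Tcf7 are in the nuclear relay, so the lists are not independent. Ephb2 was at 32.9 to 72.3 CPM with scopolamine and 65.0 to 79.0 CPM in sham, and its log2 fold change was -0.32 (adjusted p = 0.869).

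Genes of dividing cells had mostly higher estimates, with a high summed level in scopolamine 2 and 4 only. They are given here because crypt base stem cells cycle. Of 18 such genes 17 passed the filter, 13 with higher and 4 with lower estimates. Over all genes tested, 50.9% of estimates were below 0. The median log2 fold change of the list was 0.59. Birc5, a component of the chromosomal passenger complex, was at 9.77, 46.8, 7.90 and 42.0 CPM with scopolamine and 10.8, 3.99, 4.53 and 3.97 CPM in sham. Scopolamine 2 and 4 were high, and scopolamine 1 and 3 lay under sham 1. Its log2 fold change was 2.19 (edgeR adjusted p = 0.812), and it was the 1 gene of these lists that DESeq2 called (adjusted p = 0.0654). Ccnb1 and Mki67 had 2.61 and 2.53 (edgeR unadjusted p = 0.0285 and 0.0492, adjusted p = 0.812 for both), whereas Pcna and Tyms, genes of DNA replication and the most abundant of the list, had 0.06 and -0.05. The sum of these genes was 511 and 471 CPM in scopolamine 2 and 4 and 135 to 298 CPM in the other 6 libraries, and in the same 2 mice Lgr5 was at 29.9 and 47.6 CPM, the lowest and the highest treated value.

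**Figure D5:**
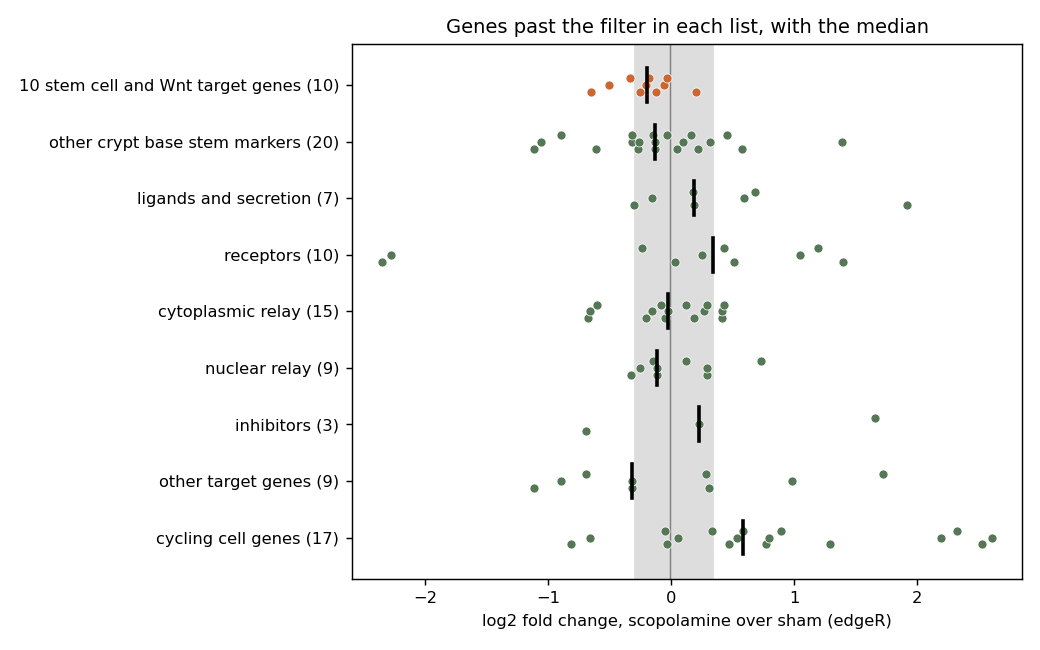
Log2 fold change with scopolamine over sham (edgeR) of each gene past the filter in 9 lists, the number of genes in parentheses; the black bar is the list's median, the grey band runs between the quartiles of all 12849 genes tested (-0.29 to 0.34) and the grey line their median. The medians of the 10 genes (orange, -0.19) and of the other stem markers (-0.13) lie inside the band. Those of the cycling cell genes (0.59) and of the other Wnt target genes (-0.32) lie outside it, and that of the Wnt receptors (0.34) lies at its upper edge.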

How the data were processed

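Adaptors were removed and reads were demultiplexed (bcl2fastq 2.20, per the submitters' processing notes), and the authors assigned reads to GRCm38 transcripts with kallisto 0.44.0 and summed them per gene with tximport. The release of the annotation and the strand setting are not given in the sources used here. The deposited values are estimated counts per gene without normalization; all are whole numbers, so rounding before testing changed none. The reads carry no molecular identifiers, and the floor covers counting error only. The 95% intervals come from the fit of 4 against 4 mice and include the variation between mice. No 2 libraries were identical. Replicates are separate mice, numbered in accession order.

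Groups (4 against 4) were compared with edgeR 4.0.16 in R 4.3.3 (the quasi-likelihood test with TMM factors and filterByExpr; called at a Benjamini-Hochberg adjusted p under 0.1 over the 12849 genes that remained), and single genes by two-sided exact permutation tests on log2(CPM + 1) (scipy 1.17.1). The test was run on simulated data first. CPM divides each count by the TMM-scaled library total. RNA input and cycles come from the study's source data. Of the table's symbols, 34887 were found in GENCODE M21. Alternatives were DESeq2 1.42.0, its size factors in edgeR, plain library sizes, omission of the filter or a minimum of 10 counts per library, a threshold of 0.05, exclusion of the lower-input sham libraries, a covariate for amplification cycles or mouse ID letter, thinning to the smallest total, and leaving out each replicate.

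The 10 genes and the lists were chosen with earlier results of these data known. Of each pathway list, the 3 tested genes with the smallest p and the 2 most abundant are named; marker lists are given by their sums. Protein sequences were not used here, so the planned alignments were not run.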

Additional observations from a re-analysis of the deposited data

Results flagged for a closer look

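In 144 combinations of a named gene or marker and a group of 4 libraries, 21 had 1 library farther from the others than Dixon's criterion allows at the 95% level, where chance flags about 1 in 20 groups. Among the 10 genes the 1 case was Olfm4 in scopolamine 3, at 9.45 CPM, where the other treated mice had 41.9 to 48.6 CPM; the gap was 0.83 of the group's range, just past the criterion.

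Sham 1 gave 9 of the 21 cases. It was high for the lymphocyte genes Cd3e (9.24 CPM), Cd8a (14.6 CPM), Gzma (66.9 CPM) and Cd7 (8.59 CPM), the enterocyte genes Apoa1 (394 CPM) and Fabp1 (5272 CPM), the goblet cell gene Muc2 (99.2 CPM), the mitotic gene Birc5 (10.8 CPM) and the stromal gene Col1a2 (0.265 CPM). For Col1a2 the counts were 7, 7, 7 and 6 in sham 1 to 4, so its higher CPM in sham 1 comes from the scaling of a shallower library and not from more reads. Sham 3 gave 5, with high Cck (259.95 CPM), Chgb (150.1 CPM), Neurod1 (6.89 CPM) and Tac1 (12.2 CPM), all enteroendocrine, and low Fzd5 (23.1 CPM). Wnt4 was high in sham 4 (0.746 CPM). Among treated mice, scopolamine 4 was high for the Paneth cell genes Lyz1 (487 CPM) and Itln1 (416 CPM), scopolamine 1 for Muc2 (174 CPM) and Cd44 (21.8 CPM), and scopolamine 2 for Cd7 (15.3 CPM).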

How the results depend on the processing

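No gene of the 10 passed the threshold in any of the 18 alternatives. Over all genes edgeR called 0; DESeq2 called 190, leaving out the lower-input sham libraries gave 9, the cycle covariate 5, and leaving out each replicate 0 to 2 (1 without scopolamine 4, 2 without sham 1); the cause was not tested. The median log2 fold change of the 10 genes stayed below 0, from -0.37 without scopolamine 1 to -0.12 without scopolamine 3, and was -0.13 after thinning; Axin2 did not pass the filter after thinning, with at least 10 counts required in every library or without sham 4. Lgr5, Ascl2, Smoc2, Rnf43 and Znrf3 kept a lower and Lrig1 a higher estimate in all 18 fits. The others changed direction: without the lower-input sham libraries and with the cycle covariate, Olfm4 was at 1.01 and 1.03, Lgr4 at 0.34 and 0.36 and Bmi1 at 0.14 and 0.16, and with the mouse ID letter Axin2 was at 0.25. With each replicate left out, log2 fold changes ran from -0.32 to 0.55 (Olfm4), -0.65 to 0.27 (Axin2, 7 of the 8 fits), -0.20 to 0.29 (Lgr4) and -0.40 to 0.13 (Bmi1). No paired analysis was possible because the labels give no replicate numbers that groups share. Axin2 had at most 29 counts in a library, and its log2 fold change had a standard error of 1.14.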
